A study of Homo sapiens with 12 samples.

Results

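Matrix metalloproteinases (MMPs) and their tissue inhibitors (TIMPs) were followed as 10 named genes, 7 MMPs (MMP1, MMP3, MMP7, MMP9, MMP10, MMP13 and MMP14) and 3 TIMPs (TIMP1, TIMP2 and TIMP3), out of 58288 genes listed. They were selected as a named family, with earlier results of these data known. Expression was measured by RNA-Seq of polyadenylated RNA in FaDu, a human head and neck squamous cell carcinoma (HNSCC) line, as transcripts per 1000000 (TPM), a length-scaled share that sums to 1000000 in each library. The groups were unirradiated STING wild type (WT), unirradiated STING knockout (KO), irradiated WT and irradiated KO, with 3 libraries each, and the irradiated groups received 4 daily fractions of 2 Gy. All groups carry lentiviral Cas9; WT cells carry a non-targeting guide RNA and KO cells a guide against STING, encoded by TMEM173. Each genotype was a single derived line, so loss of STING and any other difference between the 2 lines cannot be told apart. TMEM173 was 21.1 to 26.1 TPM in the 6 WT libraries and 5.18 to 7.41 TPM in the 6 KO libraries, without overlap.

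MMPs are zinc-dependent endopeptidases that cleave collagens, laminins, fibronectin and many surface proteins, and most are secreted as inactive proenzymes. TIMPs bind the active site of MMPs and block it. In squamous carcinomas, collagenases and stromelysins are known to be made by the tumor cells themselves as well as by stromal cells, and membrane-bound MMP14 activates other MMPs at the cell surface.

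Of these genes, 9 reached a TPM of at least 1 in at least 3 of the 12 libraries and were tested, together with 15973 genes in all. MMP9, a gelatinase, ranged from 0.033 to 0.52 TPM and was too low to judge. It lies on chromosome 20 (GRCh38, 46008908 to 46016561, plus strand), where the antisense gene SLC12A5-AS1 was listed at 0.223 to 1.87 TPM; without strand information reads of the 2 cannot be told apart. MMP3 was tested only because its 3 irradiated KO libraries were above 1 TPM, so its difference in that group is partly set by the filter. MMP7 was at or above 1 TPM in all 6 KO and 2 of the 6 WT libraries, so it passed the filter through KO cells, and its genotype differences are partly set by the filter as well. The remaining 7 genes were at or above 1 TPM in all 12 libraries.

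MMP1, MMP3, MMP7, MMP10 and MMP13 lie in 1 cluster on chromosome 11 (GRCh38, GENCODE 29), all on the minus strand. From low to high coordinates the order is MMP7 (102520508 to 102530753), MMP10 (102770503 to 102780628), MMP1 (102789920 to 102798160), MMP3 (102835801 to 102843803) and MMP13 (102942995 to 102955734). MMP14 is on chromosome 14 (22836557 to 22849027, plus strand), TIMP1 on chromosome X (47582313 to 47586789, plus strand), TIMP2 on chromosome 17 (78852977 to 78925387, minus strand) and TIMP3 on chromosome 22 (32801701 to 32863043, plus strand). Promoter windows from RefSeq (GRCh38.p14, 250 bases before to 50 after the gene start) were matched for 5 of the 10 genes, namely MMP7, MMP10, MMP14, TIMP1 and TIMP3. The 2 windows from the cluster are shown because they are the cluster promoters that were matched. Capitals mark the AP-1 motif TGAGTCA and the TATA motif TATAAA, each searched on both strands, and the windows are chr11:102530698-102530997 for MMP7 and chr11:102780579-102780878 for MMP10, both minus strand.
MMP7: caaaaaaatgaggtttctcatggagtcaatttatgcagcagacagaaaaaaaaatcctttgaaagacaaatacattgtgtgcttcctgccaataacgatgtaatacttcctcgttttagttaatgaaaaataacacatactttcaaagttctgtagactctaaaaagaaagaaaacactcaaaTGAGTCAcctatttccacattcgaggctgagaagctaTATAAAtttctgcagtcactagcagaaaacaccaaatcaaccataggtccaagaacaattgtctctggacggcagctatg
MMP10: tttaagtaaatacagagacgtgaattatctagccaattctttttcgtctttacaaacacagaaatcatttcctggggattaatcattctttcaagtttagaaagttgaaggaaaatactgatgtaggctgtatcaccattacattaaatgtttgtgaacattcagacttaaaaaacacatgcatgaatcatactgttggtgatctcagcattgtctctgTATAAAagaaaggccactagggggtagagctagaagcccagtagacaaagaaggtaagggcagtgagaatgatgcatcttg
In MMP7, TGAGTCA began 67 bases and TATAAA 30 bases before the start, and they did not overlap. In MMP10, TATAAA began 31 bases before the start and TGAGTCA was not in the window. Only exact matches were searched, so variant forms of a motif were not counted in any window. No motif of those searched was in the windows of MMP14, TIMP1 and TIMP3; these also included the interferon-stimulated response element (GAAA, 2 free bases, GAAA) and the GAS motif TTCNNNGAA. Over 35116 promoter windows, TGAGTCA was in 4.95%, TATAAA in 11.5%, the interferon-stimulated response element in 3.57% and TTCNNNGAA in 7.66%.

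TPM is scaled to transcript length, so levels can be set side by side between genes. In unirradiated WT cells MMP14, the membrane-type MMP, was highest at 112 ± 6.996 TPM (SD, n = 3), followed by TIMP1 at 63.9 ± 4.47 TPM. TIMP2, MMP1, MMP13, TIMP3 and MMP10 followed, from 7.15 ± 0.717 TPM for TIMP2 down to 3.49 ± 0.141 TPM for MMP10. Within that run the libraries of TIMP2 and MMP1, of MMP1 and MMP13, and of MMP13 and TIMP3 overlapped, while those of TIMP3 and MMP10 did not. MMP7 was at 0.922 ± 0.434 TPM, and MMP3 and MMP9 were at or below 0.237 TPM with overlapping libraries. In irradiated KO cells the order changed below the leading pair. MMP1 came next at 25.7 ± 2.44 TPM, and MMP13 at 18.2 ± 2.11 TPM and MMP10 at 18.0 ± 1.03 TPM, whose libraries overlapped, stood above TIMP2 at 8.51 ± 0.698 TPM and TIMP3 at 4.17 ± 0.481 TPM.

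**Figure D1:**
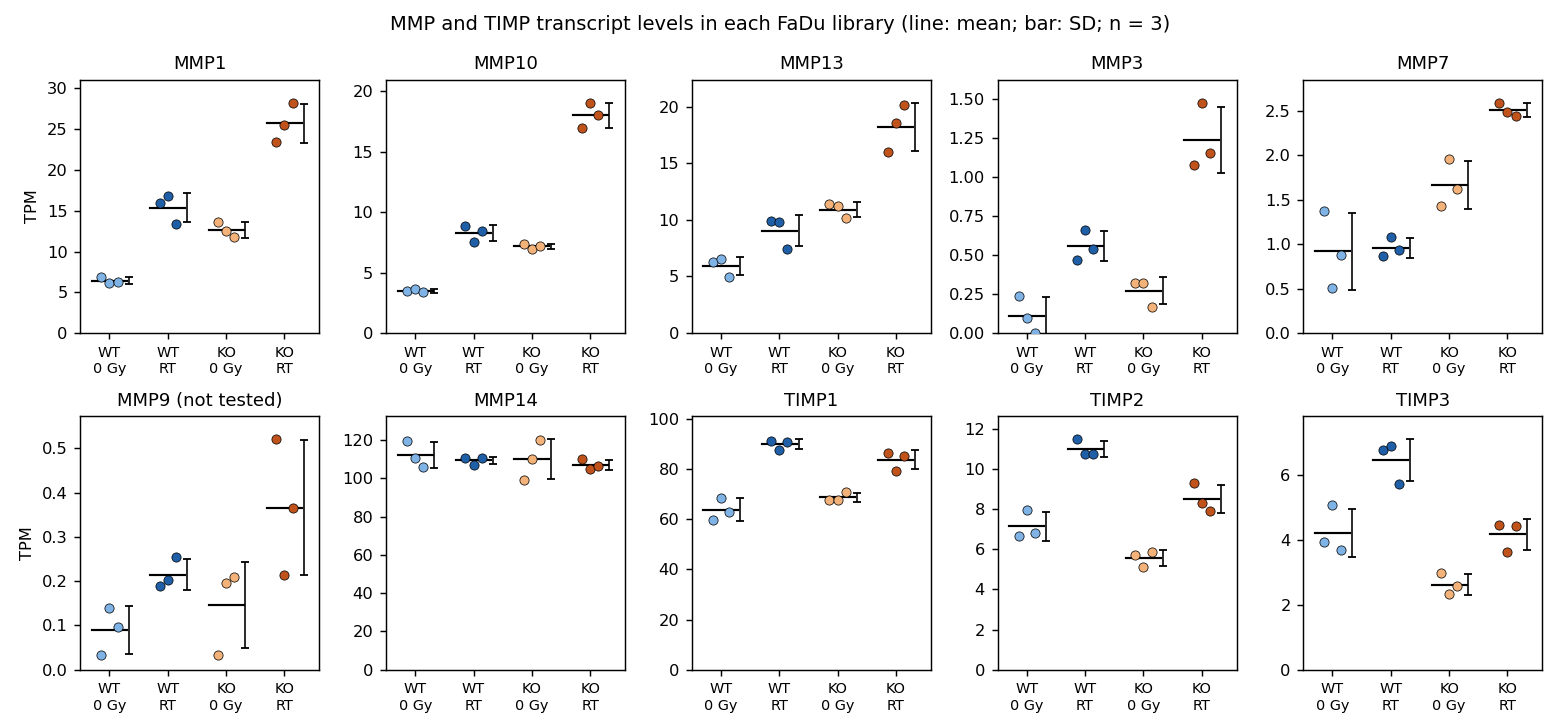
TPM of each of the 10 genes (vertical axis from 0, own scale per panel) in the 12 libraries, with WT and KO cells unirradiated (0 Gy) or irradiated (RT); points are libraries, lines means and bars SD (n = 3). MMP1, MMP10 and MMP13 are lowest in unirradiated WT and highest in irradiated KO libraries, TIMP2 and TIMP3 are highest in irradiated WT libraries, and MMP14 stays between 99.3 and 120 TPM.

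The interstitial collagenase MMP1 and the stromelysin MMP10 had the same order of group means. The libraries of unirradiated KO and irradiated WT cells overlapped for MMP1 and not for MMP10. MMP1 was 6.91, 6.14 and 6.24 TPM in unirradiated WT, 13.7, 12.5 and 11.8 TPM in unirradiated KO, 15.9, 16.8 and 13.4 TPM in irradiated WT, and 23.4, 25.5 and 28.2 TPM in irradiated KO libraries. MMP10 was 3.47, 3.64 and 3.36 TPM in unirradiated WT, 7.39, 6.91 and 7.16 TPM in unirradiated KO, 8.83, 7.54 and 8.45 TPM in irradiated WT, and 16.95, 19.0 and 18.0 TPM in irradiated KO libraries. For both genes every KO library was above every WT library of the same dose, and every irradiated library above every unirradiated one of the same genotype. The irradiated KO mean was 3.997 times the unirradiated WT mean for MMP1 and 5.16 times for MMP10, a description of the extremes that was not tested.

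MMP13, collagenase with a preference for type II collagen, was also lowest in unirradiated WT and highest in irradiated KO cells, with more spread. Its libraries were 6.27, 6.50 and 4.98 TPM in unirradiated WT, 11.4, 11.2 and 10.1 TPM in unirradiated KO, 9.88, 9.79 and 7.46 TPM in irradiated WT, and 16.0, 18.5 and 20.2 TPM in irradiated KO cells. Unirradiated KO libraries of MMP13 were thus all above the irradiated WT libraries. MMP7 (matrilysin), which lacks the hemopexin domain, was 1.38, 0.511 and 0.877 TPM in unirradiated WT, 1.43, 1.96 and 1.62 TPM in unirradiated KO, 0.866, 1.09 and 0.93 TPM in irradiated WT, and 2.59, 2.49 and 2.44 TPM in irradiated KO libraries. Its WT groups overlapped and its KO libraries were above the WT libraries at each dose. The stromelysin MMP3 was 0.237, 0.096 and 0 TPM in unirradiated WT, 0.318, 0.322 and 0.17 TPM in unirradiated KO, 0.471, 0.663 and 0.54 TPM in irradiated WT, and 1.08, 1.48 and 1.16 TPM in irradiated KO libraries.

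MMP14 was 120, 111 and 106 TPM in unirradiated WT, 99.3, 110 and 120 TPM in unirradiated KO, 111, 107 and 110 TPM in irradiated WT, and 110, 105 and 106 TPM in irradiated KO libraries, and all 4 groups overlapped. TIMP1, a secreted inhibitor of most MMPs that binds MMP14 weakly, was 59.8, 68.7 and 63.1 TPM in unirradiated WT, 67.8, 67.8 and 70.9 TPM in unirradiated KO, 91.3, 87.8 and 90.8 TPM in irradiated WT, and 86.3, 79.4 and 85.4 TPM in irradiated KO cells. Irradiated libraries of TIMP1 were above the unirradiated ones in both genotypes. TIMP2, which inhibits MMP14 and also bridges it to proMMP2, was 6.66, 7.97 and 6.82 TPM in unirradiated WT, 5.73, 5.12 and 5.85 TPM in unirradiated KO, 11.5, 10.8 and 10.8 TPM in irradiated WT, and 9.29, 8.32 and 7.93 TPM in irradiated KO cells. TIMP3, which binds to the matrix and also inhibits ADAM proteases, was 3.93, 5.07 and 3.68 TPM in unirradiated WT, 2.97, 2.32 and 2.57 TPM in unirradiated KO, 6.76, 6.89 and 5.73 TPM in irradiated WT, and 4.46, 3.62 and 4.44 TPM in irradiated KO cells. For TIMP2 and TIMP3 the KO libraries were below the WT libraries at each dose, and the irradiated above the unirradiated in each genotype.

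The first comparison was KO against WT in unirradiated cells, which addresses how the transcriptome differs with STING loss at baseline. MMP1, MMP10 and MMP13 were higher in KO cells by 1.97-, 2.05- and 1.84-fold in mean TPM. On the log2(TPM + 1) scale, which understates changes of low genes, limma gave differences of 0.88 ± 0.10 (SE; adjusted p = 0.00106), 0.86 ± 0.07 (adjusted p = 0.000135) and 0.79 ± 0.13 (adjusted p = 0.0105). Adjusted p-values are Benjamini-Hochberg values over all tested genes, with 0.05 as the threshold. Of the 9 tested genes 3 were thus higher, where 0.463% of all tested genes were, and 0 were lower, where 1.26% were. At an unadjusted p under 0.05, 6 genes differed, and these also included MMP7 (0.49, adjusted p = 0.171), TIMP2 (-0.31, adjusted p = 0.125) and TIMP3 (-0.52, adjusted p = 0.0754). The median difference of the 9 genes was 0.20, which is the value of MMP3 itself, 0.30 without MMP3 and 0.11 without MMP3 and MMP7, beside -0.02 over all genes. The split of all calls was 74 higher and 202 lower, and became 114 and 194 when TPM was divided by median-of-ratios factors. The MMP13 call was lost without unirradiated KO replicate 2 (adjusted p = 0.0504) and with only the 6 libraries compared (adjusted p = 0.0522).

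In irradiated cells, 4 MMPs were higher in KO than in WT. Mean TPM was 1.67-fold for MMP1, 2.18-fold for MMP10, 2.01-fold for MMP13 and 2.61-fold for MMP7. The limma differences were 0.71 ± 0.10 for MMP1 (adjusted p = 0.00289), 1.04 ± 0.07 for MMP10 (adjusted p = 2.09e-05), 0.94 ± 0.13 for MMP13 (adjusted p = 0.00246) and 0.84 ± 0.16 for MMP7 (adjusted p = 0.0152). TIMP3 was lower by this test (-0.53 ± 0.13, adjusted p = 0.0469), with a KO mean 0.646 times that of WT. Over all tested genes 0.927% were higher and 2.66% lower. MMP3 at 0.52 (adjusted p = 0.0643) and TIMP2 at -0.34 (adjusted p = 0.0648) did not pass. Under 3 of 19 alternatives MMP3 did pass (adjusted p down to 0.0212), while TIMP2 passed under none. The count of 4 includes MMP7, which entered the test through KO cells. The median of the 9 genes was 0.52, again the value of MMP3, 0.34 without MMP3 and -0.03 without MMP3 and MMP7, beside -0.02 over all genes. The TIMP3 call was lost when any of 11 of the 12 libraries was left out (adjusted p 0.0506 to 0.147), the exception being unirradiated WT replicate 2, and under 17 of 19 alternatives in all. The MMP7 call was lost without irradiated WT replicate 1 or 3 or any irradiated KO replicate (adjusted p 0.0501 to 0.0642).

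**Figure D2:**
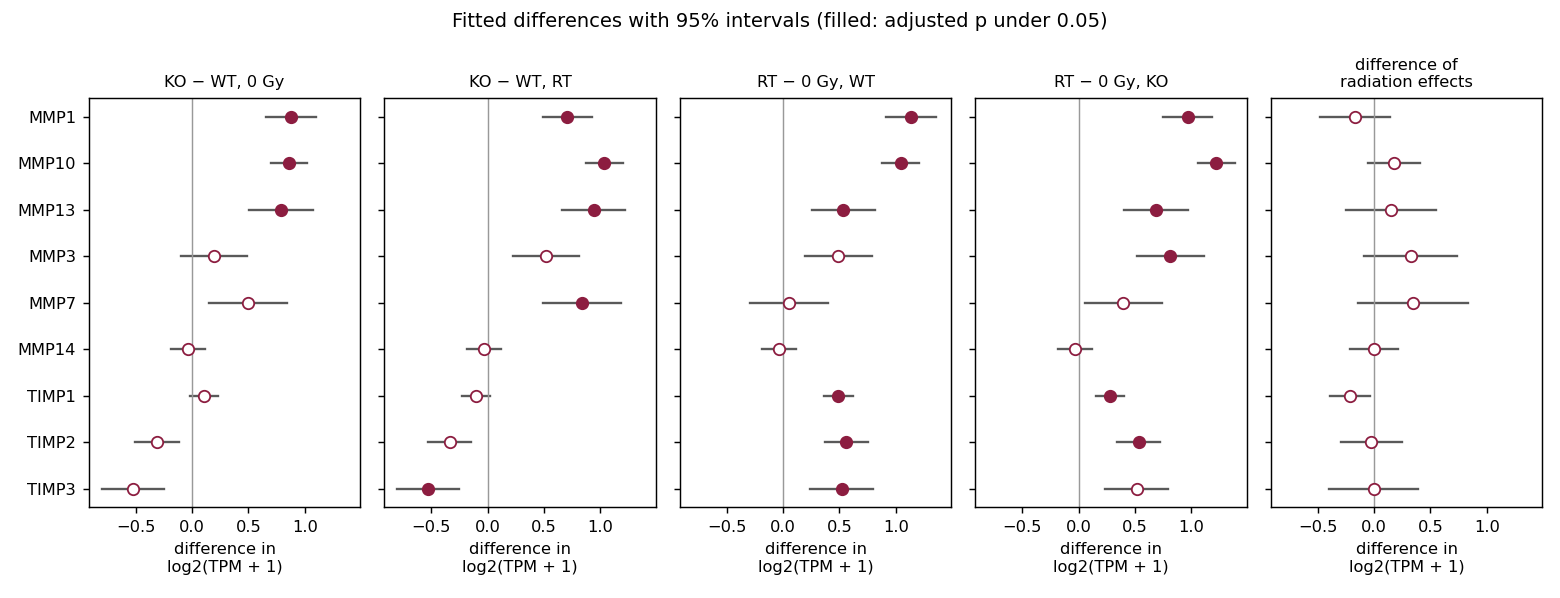
Differences in log2(TPM + 1) (horizontal axis) of the 9 tested genes in the 5 contrasts, one panel each, with 95% intervals from limma; filled points have an adjusted p under 0.05. MMP1, MMP10 and MMP13 are filled in the first 4 panels, MMP14 lies near 0 in each, and no point is filled for the difference of the radiation effects.

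Radiation in WT cells addressed the response to fractionated treatment where STING is present. MMP1 rose 2.39-fold in mean TPM (log2 difference 1.14 ± 0.10, adjusted p = 0.000253) and MMP10 2.37-fold (1.04 ± 0.07, adjusted p = 7.74e-05). MMP13 rose by less, 1.53-fold (0.54 ± 0.13, adjusted p = 0.0477). All 3 inhibitors rose as well, TIMP1 1.41-fold (0.49 ± 0.06, adjusted p = 0.00139), TIMP2 1.54-fold (0.56 ± 0.09, adjusted p = 0.00673) and TIMP3 1.53-fold (0.52 ± 0.13, adjusted p = 0.049983). Thus 6 of 9 were higher, where 2.24% of all tested genes were, and 0 were lower, also at an unadjusted p under 0.05, where 1.5% of all genes were called lower. The median of the 9 genes was 0.52, beside 0.02 over all genes. The MMP13 and TIMP3 values lie at the threshold, and each call was lost when any of 11 of the 12 libraries was left out (adjusted p 0.0505 to 0.158 for MMP13, all but irradiated WT replicate 3, and 0.0544 to 0.155 for TIMP3, all but unirradiated WT replicate 2). Counting every alternative, the call was lost under 15 of 20 for MMP13, 17 of 19 for TIMP3 and 1 of 20 for TIMP2 (adjusted p = 0.0525).

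In KO cells radiation raised MMP1 2.03-fold (0.97 ± 0.10, adjusted p = 0.000731), MMP10 2.52-fold (1.22 ± 0.07, adjusted p = 3.5e-05) and MMP13 1.67-fold (0.69 ± 0.13, adjusted p = 0.0181). TIMP1 rose 1.22-fold (0.28 ± 0.06, adjusted p = 0.0262) and TIMP2 1.53-fold (0.53 ± 0.09, adjusted p = 0.00895), while TIMP3, with 1.59-fold (0.51 ± 0.13, adjusted p = 0.0521), did not pass. MMP3 also passed (0.81 ± 0.13, adjusted p = 0.00938), from 0.27 ± 0.0866 to 1.24 ± 0.212 TPM, in the group through which it entered the test. With it 6 of 9 were higher, and over all tested genes 2% were higher and 1.7% lower, while 0 of the 9 were lower, also at an unadjusted p under 0.05. The median of the 9 genes was 0.53, beside 0.02 over all genes. The call was lost for MMP13 without unirradiated or irradiated KO replicate 2 or 3 (adjusted p 0.0541 to 0.0681) and for TIMP1 without any unirradiated KO replicate or irradiated KO replicate 1 or 3 (adjusted p 0.0598 to 0.085). Counting every alternative, the call was lost under 4 of 20 for MMP13 and 7 of 20 for TIMP1. It was lost under 2 of 19 for MMP3 and 1 of 20 for TIMP2, with adjusted p up to 0.064 for both. A call was gained for TIMP3 under 3 of 19 (adjusted p down to 0.0385). With only the 6 libraries compared, 3 genes passed in each of the 2 radiation contrasts.

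Whether the radiation effect differed with genotype was tested as the difference of the 2 radiation effects, KO minus WT. None of the 9 genes passed in limma, where 0.0188% of all genes did, and 1 had an unadjusted p under 0.05. That gene was TIMP1, with a smaller rise in KO cells (-0.21 ± 0.08, adjusted p = 0.734). The differences had 95% intervals from -0.06 to 0.41 for MMP10, -0.48 to 0.14 for MMP1, -0.25 to 0.55 for MMP13, -0.30 to 0.24 for TIMP2 and -0.40 to 0.39 for TIMP3. For MMP3 and MMP7 they reached from -0.09 to 0.74 and from -0.14 to 0.83. That of TIMP1 reached from -0.39 to -0.03 before adjustment. MMP14 passed in no contrast, and its intervals ran from -0.18 to 0.12 for both genotype contrasts and from -0.19 to 0.12 for both radiation contrasts. The contrasts share libraries, so that their values for 1 gene are not independent of each other.

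The summed level of the 5 cluster genes was set beside that of the 3 TIMPs, a sum chosen after the values were seen and given without a test. The 5 MMPs added up to 16.9 ± 1.41 TPM in unirradiated WT, 32.6 ± 1.65 TPM in unirradiated KO, 34.2 ± 2.97 TPM in irradiated WT and 65.7 ± 5.17 TPM in irradiated KO cells. The TIMPs added up to 75.2 ± 5.83, 77.0 ± 2.08, 107 ± 2.03 and 96.4 ± 4.55 TPM in the same order. The ratio of the sums was 0.225 ± 0.0295, 0.424 ± 0.0306, 0.319 ± 0.0281 and 0.683 ± 0.0733, and the libraries of the 4 groups did not overlap. Without MMP7 the ratios were 0.213, 0.402, 0.310 and 0.657. The order and separation of these ratios hold for sums without MMP14. All 7 MMPs added up to 129 ± 8.35, 143 ± 8.88, 144 ± 2.63 and 173 ± 3.25 TPM in the same order. Unirradiated KO libraries then overlapped with both WT groups. Relative to the TIMP sum, the sum of 7 MMPs was lower in irradiated than in unirradiated WT cells. MMP14 made up 86.9 ± 0.285% of the summed TPM of the 7 MMPs in unirradiated WT, 76.9 ± 2.53% in unirradiated KO, 76.1 ± 1.75% in irradiated WT and 61.9 ± 2.32% in irradiated KO cells. TIMP1 made up between 83.3% and 90.1% of the TIMP sum in every library. These are transcript shares, and say nothing of active enzyme.

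**Figure D3:**
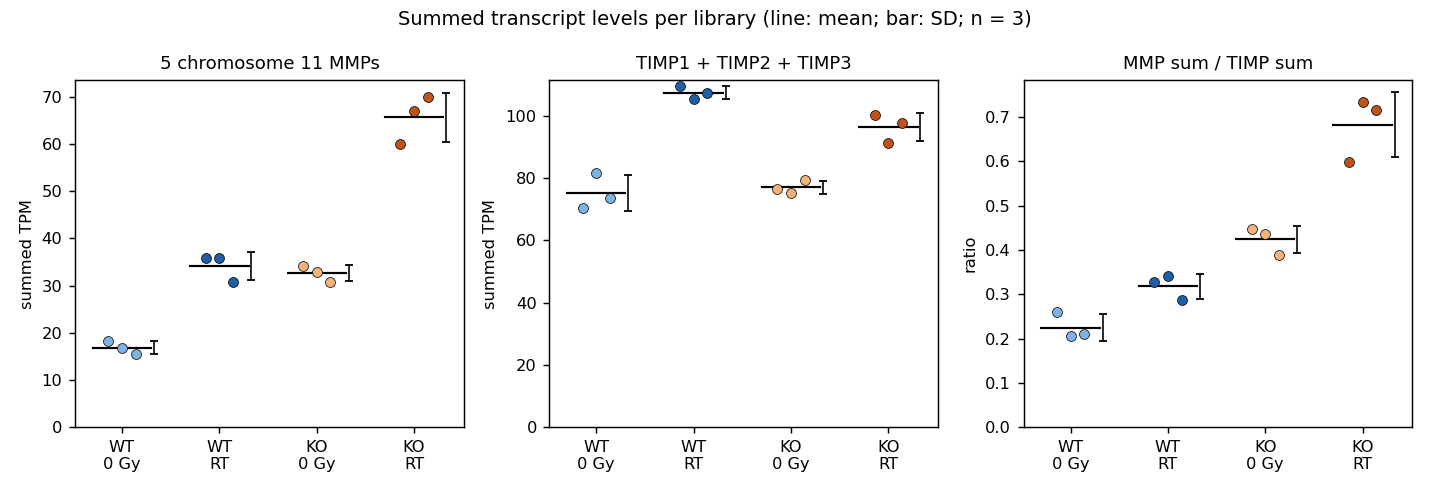
Summed TPM of MMP1, MMP3, MMP7, MMP10 and MMP13 (left), summed TPM of the 3 TIMPs (middle) and the ratio of both (right) per library, with mean and SD (n = 3) and axes from 0. The MMP sum is 16.9 TPM in unirradiated WT and 65.7 TPM in irradiated KO cells, and the ratio 0.225 and 0.683. MMP14, the most abundant MMP, is not in the sum, and the order of the groups depends on this.

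Within the cluster, MMP12 (macrophage elastase), which is not among the 10 genes, lies between MMP3 and MMP13. Its mean was 1.77 ± 0.274 TPM in unirradiated WT, 2.94 ± 0.413 TPM in unirradiated KO, 2.92 ± 0.815 TPM in irradiated WT and 6.55 ± 0.453 TPM in irradiated KO cells. It passed for KO against WT after irradiation (0.97 ± 0.15, adjusted p = 0.00671) and for radiation in KO cells (0.94 ± 0.15, adjusted p = 0.00946). The cluster's MMP20, MMP27 and MMP8 were listed at 0 in every library. Of 7 genes fixed as neighbours of the cluster, none passed for KO against WT at either dose, and 1, PDGFD, was lower after irradiation in WT (-0.30, adjusted p = 0.0314) and in KO cells (-0.34, adjusted p = 0.0181). YAP1, a Hippo pathway coactivator, and BIRC3, an inhibitor of apoptosis on the low-coordinate side, and TMEM123 and DCUN1D5, which flank the cluster, passed in no contrast.

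**Figure D4:**
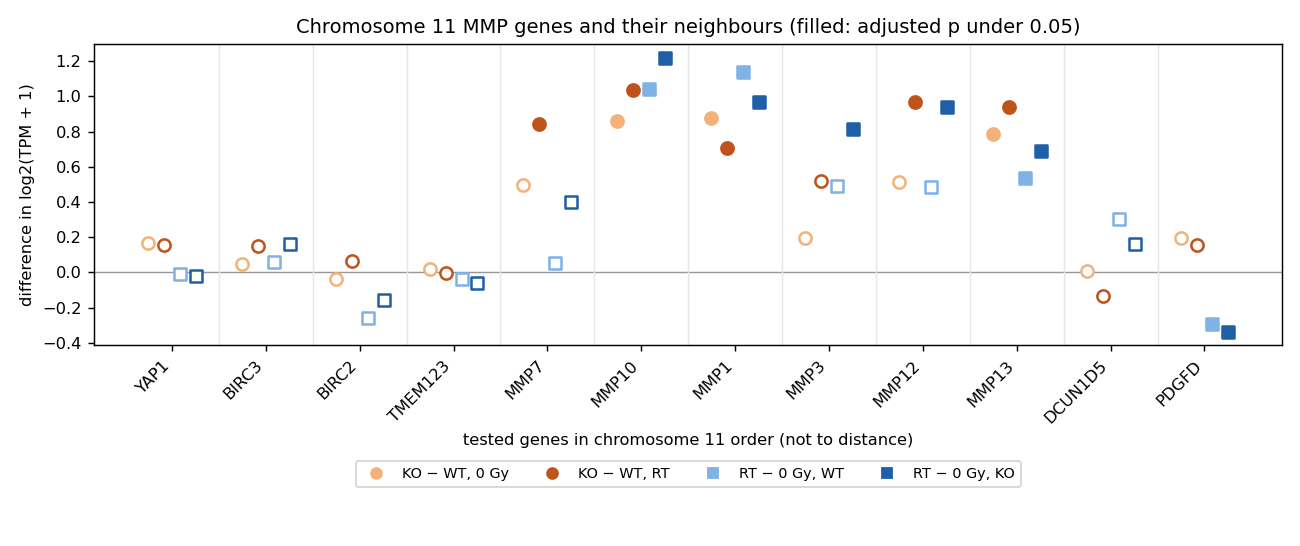
Differences in log2(TPM + 1) of tested genes in their order along chromosome 11, circles for KO minus WT and squares for radiation, with filled symbols for an adjusted p under 0.05. The tested neighbour DYNC2H1, which passed in no contrast, is not drawn. The MMP genes from MMP7 to MMP13 lie above 0 in every contrast, and among the flanking genes only PDGFD has filled symbols.

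The genes whose pattern over the 12 libraries was most like that of MMP10, by the root mean square difference of centred log2(TPM + 1), were MMP1 (0.170), IGFL1 (0.206), IL1R2 (0.279), MMP13 (0.295) and MMP12 (0.299), against a median of 0.763 over all tested genes. IGFL1, an insulin growth factor-like gene, went from 45.8 TPM in unirradiated WT to 221 TPM in irradiated KO cells, and IL1R2, the decoy receptor of interleukin 1, from 0.618 to 5.93 TPM. For TIMP3 they were SH3GL2 (0.123), AREG (0.133), PLCB4 (0.137), EFNB3 (0.138) and TIMP2 (0.139), against a median of 0.415. AREG, which encodes the EGFR ligand amphiregulin, averaged 117 TPM in unirradiated WT, 90.8 TPM in unirradiated KO, 162 TPM in irradiated WT and 124 TPM in irradiated KO cells. The 12 libraries share 4 conditions, so likeness here mostly repeats the order of the group means.

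Of 16 other MMP genes, 6 were tested and 2 passed in any contrast, MMP12 and the gelatinase MMP2. The fourth inhibitor, TIMP4, was also tested and passed in none (radiation in WT 0.49 ± 0.13, adjusted p = 0.0667), at group means of 0.586 to 1.26 TPM. TIMP4 reached 1 TPM only in the 3 irradiated WT libraries, so its difference in that group is partly set by the filter. MMP2 was higher after irradiation in WT (0.58 ± 0.11, adjusted p = 0.016) and in KO cells (0.44 ± 0.11, adjusted p = 0.0498), at group means of 1.13 to 2.20 TPM. Of 16 ADAM and ADAMTS genes 9 were tested. ADAM8, a membrane sheddase, rose with radiation in WT (0.82, adjusted p = 9.29e-05) and KO cells (0.62, adjusted p = 0.000619) and after it stood lower in the KO line (-0.40, adjusted p = 0.00481), and ADAM12 rose in WT cells (0.80, adjusted p = 0.0132). No other gene of that list passed.

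Among the activators, inhibitors and partners of MMPs, PLAT, the tissue plasminogen activator, was higher in KO than in WT cells, both unirradiated and irradiated, and SPOCK1 and PLAUR were lower at both doses. SPOCK1, a proteoglycan of the testican family, was at 8.50, 10.1 and 8.92 TPM in unirradiated WT and 1.47, 1.61 and 1.80 TPM in unirradiated KO libraries (-1.95 ± 0.13, adjusted p = 2.24e-05). PLAUR, the urokinase receptor, had 10.6 against 5.67 TPM (-0.79 ± 0.13, adjusted p = 0.0107). Urokinase itself, PLAU, which starts the plasmin cascade that activates proMMPs, did not pass between genotypes (0.13 ± 0.05 unirradiated, adjusted p = 0.213) and rose with radiation in WT (0.48 ± 0.05, adjusted p = 0.00038) and KO cells (0.40 ± 0.05, adjusted p = 0.00121). PCSK6 and THBS1 also rose with radiation in both genotypes, while PLAUR and SPOCK1 passed in WT cells and not in KO cells, and no gene of the list passed for the difference of the radiation effects. Genes outside the naming rule were named here after their values were seen.

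Of 24 matrix and surface substrates, 20 were tested. FN1 (fibronectin) was lower in unirradiated KO than WT cells (-0.83 ± 0.15, adjusted p = 0.0171), and COL4A1, COL17A1 and the syndecan SDC4 were lower in irradiated KO than WT cells (-0.29, -0.42 and -0.38). With radiation COL4A1, COL4A2 and FN1 rose in WT cells and COL4A1 and FN1 in KO cells. The substrate medians were -0.11 and -0.19 for the genotype contrasts and 0.09 and 0.06 for the radiation contrasts. 

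The 16 listed transcription factors known to act on MMP promoters, AP-1 and ETS factors and the Runt factor RUNX2, were all tested. Between genotypes none passed in unirradiated cells, and FOSL1 and BATF3 were lower in irradiated KO cells (-0.43 ± 0.09, adjusted p = 0.0281, and -0.75 ± 0.17, adjusted p = 0.0441). BATF3 reached 1 TPM in 4 WT libraries and was at most 0.503 TPM in KO cells, so its call is partly set by the filter. FOSL1, an AP-1 subunit, was 181, 137 and 175 TPM in unirradiated WT, 146, 144 and 148 TPM in unirradiated KO, 284, 281 and 269 TPM in irradiated WT and 217, 204 and 199 TPM in irradiated KO libraries. It rose with radiation in WT (0.76, adjusted p = 0.0014) and in KO cells (0.50, adjusted p = 0.0155). ETV5 rose in WT cells (0.70, adjusted p = 0.018), and ELF3, an epithelial ETS factor, fell in both (-0.80, adjusted p = 0.00457, and -0.74, adjusted p = 0.00636). FOSL2 and JUNB fell in KO cells. Between genotypes FOSL1 did not pass in unirradiated cells (-0.16, adjusted p = 0.475). ELF3 was 0.39 unirradiated (adjusted p = 0.143) and 0.44 irradiated (adjusted p = 0.0648). The median genotype difference of the 16 factors was -0.16 unirradiated and -0.25 irradiated. The part of these factors in the MMP levels was not tested.

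**Figure D5:**
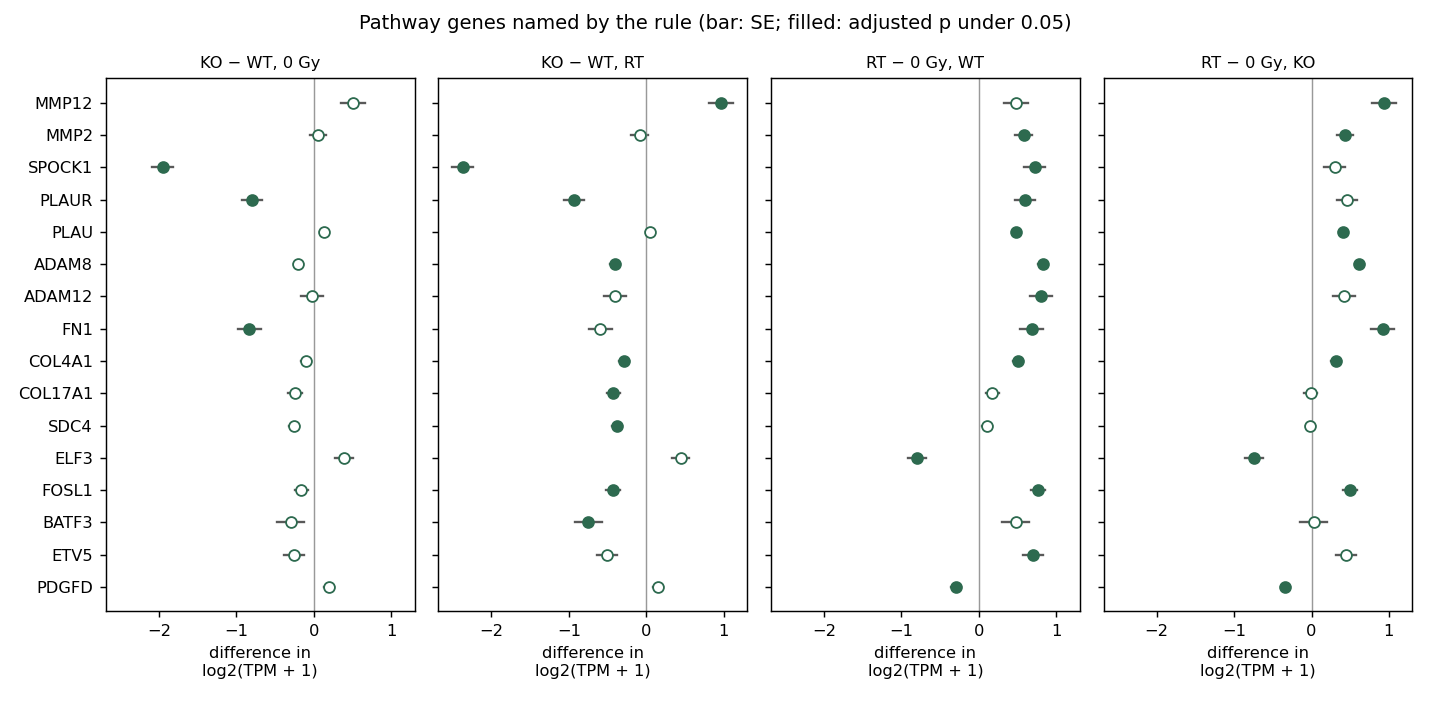
Differences in log2(TPM + 1) ± SE of pathway genes named by rule, in the 4 contrasts of genotype and radiation, with filled points for an adjusted p under 0.05. SPOCK1 has the lowest values, -1.95 unirradiated and -2.37 irradiated, and PLAU is filled only for radiation.

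The label of a squamous line was checked against markers. All 7 squamous epithelial markers were expressed, at 6928 to 9773 summed TPM. Of 7 fibroblast markers only COL1A1 reached 1 TPM and LUM was listed at 0, and of 6 macrophage and neutrophil markers CD14 and ITGAM did, with a summed 3.52 to 5.51 TPM, CSF3R listed at 0 and PTPRC at most 0.0894 TPM. The sum of 4 endothelial markers moved with the groups, 11.5 to 13.9 TPM in unirradiated WT, 13.0 to 15.9 TPM in unirradiated KO, 18.3 to 18.7 TPM in irradiated WT and 19.9 to 23.9 TPM in irradiated KO libraries. It came from CDH5 and VWF, while PECAM1 and KDR were at most 0.0989 TPM. Its part in the results was not tested. By sequence, 2.88% of the 50-base words of MMP3 transcripts occur in MMP10 and 3.36% of those of MMP10 in MMP3. MMP10 was the more abundant of the pair (18.0 against 1.24 TPM in irradiated KO cells), and the part of shared reads in the MMP3 values was not tested. Of the TIMP2 words 2.68% occur in CEP295NL, which was at most 0.105 TPM. Strand use in counting is not given in the sources used here. Apart from SLC12A5-AS1, genes overlapping the 10 on the opposite strand were at most 0.751 TPM. The highest of these was WTAPP1, which overlaps MMP1, MMP3 and MMP10 and ranged from 0 to 0.751 TPM. That is in the range of MMP3 in WT cells, at most 0.663 TPM, and the part of WTAPP1 reads in the MMP3 values was not tested.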

How the data were processed

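Libraries were made from polyadenylated RNA of FaDu cells and sequenced as 100 bp paired ends. Per the submitters' processing notes HISAT2, StringTie, DESeq2 and hg38 were used; versions, annotation and strand setting are not given in the sources used here. The authors deposited TPM for 58288 genes, of which 25770 were at 0 in all 12 libraries. TPM keeps no depth, so error was taken from the spread between libraries. The labels do not say whether replicates were separate cultures, and p-values measure only that spread. Columns are named NT2 and A63; NT2 was read as the non-targeting guide 2 of the WT cells and A63 as KO, and TMEM173 was lower in every A63 column.

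Genes with TPM of at least 1 in at least 3 libraries (15973) were tested on log2(TPM + 1) with limma 3.58.1 in R 4.3.3 (4 group means, eBayes with trend, Benjamini-Hochberg adjustment, threshold 0.05), after tests on simulated data. The study's count model was not used because TPM are not counts. No pairing by replicate number was seen in the values. Alternatives were another pseudocount, filter, scaling, variance prior, a replicate block, the 6 libraries compared and leaving out each library. The genes and lists were chosen with earlier results of these data known. Named list genes are up to 4 per list with the largest difference among those past the threshold in any contrast; for likeness, the 5 nearest genes to the MMP and the TIMP with the widest range of group means. A gene of the list of activators, inhibitors and partners is not reported here, so no counts are given for that list.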

Additional observations from a re-analysis of the deposited data

How the results depend on the processing

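TPM carry no depth, so counting error in the low genes MMP3, MMP7 and MMP9 is unknown. For single genes, 471 of 540 leave-one-out values and 304 of 336 values under other alternatives kept direction and side of the threshold, among them all 160 values of MMP1 and MMP10 in the 4 genotype and radiation contrasts. These counts include values that were never called. They also include fits without a library from outside the groups compared, where the difference itself cannot change. Of the leave-one-out values 48 lost a call, none of them of MMP1 or MMP10. The cause of the shifts was not tested. The fit to the 6 libraries could not be made for the difference of the radiation effects.

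The number of the 10 genes called was 3 for irradiated KO against WT at a mean TPM of at least 5, where only 6 of them were tested, and 3 in each radiation contrast with only the 6 libraries compared. It ranged from 3 to 5 for irradiated KO against WT when each library was left out.

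Over all genes, only the 6 libraries compared gave 103 calls for unirradiated KO against WT (276 in the full fit), 252 for irradiated KO against WT (573), 166 for radiation in WT (597) and 195 for radiation in KO cells (590). Leaving out each library gave 172 to 292, 313 to 542, 242 to 526 and 268 to 553 calls in the same order. The lowest counts came without unirradiated KO replicate 2, irradiated WT replicate 1, irradiated WT replicate 1 and unirradiated KO replicate 2. For the difference of the radiation effects the 3 calls became 7 with no filter on low values, 1 without a trend, and 1 to 9 when each library was left out.

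No pairing by replicate number was seen in the values, where the deviations of 18 same-numbered pairs correlated between -0.0602 and 0.0641. These correlations cannot show whether same-numbered libraries were handled together. With the replicate block the calls over all genes were 211, 378, 315, 359 and 1 in the order of the 5 contrasts, and of the 9 tested genes 3, 4, 4, 5 and 0.

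Signs turned only for values near 0 that passed under no setting. MMP7 with radiation in WT cells was -0.0247 under quantile normalization and -0.109 to 0.217 when each library was left out. Left-out ranges of MMP14 were -0.0976 to 0.0385 for unirradiated KO against WT, -0.0746 to 0.0129 for radiation in WT, -0.105 to 0.0311 for radiation in KO and -0.0703 to 0.0658 for the difference of the radiation effects, which was -0.0010 with median-of-ratios factors. For that difference TIMP2 ranged from -0.0977 to 0.0176 and TIMP3 from -0.117 to 0.0749, and TIMP3 was 0.0422 with a pseudocount of 0.1.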
